A study of Rattus norvegicus with 11 samples.

Results

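Prolactin, growth hormone, their receptors and the STAT5 genes and targets downstream were followed across rat adrenal lesions and normal adrenal glands. The set held 8 genes, Prl, Gh1, Prlr, Ghr, Stat5a, Stat5b, Socs2 and Cish, of 14506 genes with a named probe set, and each of the 8 had 1 probe set carrying its symbol alone. Prl was chosen by its measured difference between older and younger lesions on these arrays, so its levels are given as a description with no test. The other 7 genes were taken for their place in the same pathway.

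The data are 11 Affymetrix arrays of 1 colour, each labelled a biological replicate and taken to be 1 rat. Values are log2 expression after RMA normalization, and a gene was called where limma's adjusted p over all 29214 probe sets was under 0.05. Lesions came from 7 rats heterozygous for the p27Kip1 (Cdknb1) mutation, that is, of the gene Cdkn1b, which encodes a cyclin-dependent kinase inhibitor. The 3 older lesions were of 21 months (2 males) and 23 months (1 female) and the 4 younger lesions of 13 months (2 males, 2 females). Normal glands came from 4 wild type rats, 1 male and 1 female each at 24 and at 12 months. All animals were of the Sprague–Dawley white eye/Wistar–Kyoto strain and none was treated. What kind of lesion each was, by histology, is not stated in the labels. Of 11 measured cortical markers and 11 measured medullary markers, the mean log2 level per array lay at 8.81 to 10.29 and 9.07 to 10.40, so transcripts of both adrenal compartments were present in every sample.

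Prolactin and growth hormone are related peptide hormones, made chiefly by the lactotroph and somatotroph cells of the anterior pituitary. Each binds a single-pass cytokine receptor that has no kinase of its own and works through the attached kinase JAK2. JAK2 phosphorylates STAT5A and STAT5B, which enter the nucleus and switch on target genes, among them the feedback inhibitors CISH and SOCS2. The adrenal cortex is a known site of prolactin receptor expression, and STAT5 is regulated mainly by phosphorylation, which transcript levels do not show.

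One sequence at each end of this pathway is shown, the promoter of the ligand that defined the set and that of the feedback target Cish. Both are the 250 bases before the annotated start, from RefSeq on build GRCr8. The Prl promoter lies at chr17:38298218-38298467 on the minus strand, and its capitals mark the match to TATNCAT or its reverse complement ATGNATA, a short form of the site of the pituitary factor POU1F1. The Cish promoter lies at chr8:116850719-116850968 on the plus strand, and its capitals mark matches to TTCNNNGAA, the core of a STAT site, which reads the same on both strands.
Prl: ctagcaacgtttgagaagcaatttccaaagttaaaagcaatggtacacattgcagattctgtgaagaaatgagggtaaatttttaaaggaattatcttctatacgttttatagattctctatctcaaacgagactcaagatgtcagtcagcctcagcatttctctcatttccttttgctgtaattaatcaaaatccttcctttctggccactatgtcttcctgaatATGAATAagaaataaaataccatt
Cish: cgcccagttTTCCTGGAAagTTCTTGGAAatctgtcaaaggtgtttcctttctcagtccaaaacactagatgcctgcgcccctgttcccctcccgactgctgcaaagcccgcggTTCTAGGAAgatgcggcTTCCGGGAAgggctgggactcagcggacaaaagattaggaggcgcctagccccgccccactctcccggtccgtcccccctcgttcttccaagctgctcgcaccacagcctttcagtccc
The Cish window held 4 matches, and 4 or more were found in 2 of 33469 annotated promoter windows of this length (0.00598%), while 7.67% held at least 1. The Prl window held 1 match to the POU1F1 letters, which 8.73% of all windows held at least once. It also held 1 match to the STAT letters, not capitalised. Windows were found for 6 of the 8 genes, and Gh1 and Socs2 were not matched. Of the remaining windows, 1 of the pair for Prlr held a STAT match, and those of Ghr, Stat5a and Stat5b held none. A match describes letters and not a bound site, and promoter activity was not measured here.

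Among the hormone genes, Prl was high in each younger lesion and low elsewhere. Its log2 level was 8.57 and 7.05 in the 2 younger females and 8.09 and 8.95 in the 2 younger males. In the older lesions it was 4.23, 4.61 and 4.60, and in the normal glands 4.50, 4.61, 4.52 and 4.43. All 4 younger lesions therefore lay above all other arrays, and above the array medians of 4.91 to 5.01, whereas all older lesions and normal glands lay below those medians. Younger lesions had a mean of 8.16 ± 0.82 (SD, n = 4) and older lesions of 4.48 ± 0.22 (SD, n = 3). For normal glands it was 4.51 ± 0.07 (SD, n = 4). Older minus younger lesions gave -3.69 on the log2 scale, a 12.9-fold lower level, and younger lesions minus normal glands gave 3.65. The deposited values carry no detection call, so the lower groups may lie at background, and the fold is then a lower bound. Older lesions minus normal glands gave -0.038. In that age comparison 0.0103% of all probe sets were called, from which nothing is read for Prl, since it was chosen there. In bulk tissue, fewer cells of a type and less RNA per cell cannot be told apart.

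Gh1, the growth hormone gene, was at a low level and, like Prl, highest in the younger lesions. Its log2 level was 4.62, 4.57, 4.00 and 4.38 in the younger lesions, 3.65, 3.62 and 3.45 in the older lesions and 3.51, 3.84, 3.22 and 3.45 in the normal glands. Every younger lesion lay above every other array, yet all 11 values were below the median of their array. Of the 7 genes other than Prl, Gh1 was the only 1 with this separation from both other groups, a pattern held by 1.28% of all probe sets (3.5% for younger lesions above normal glands alone). Younger lesions minus normal glands gave 0.89 (SE 0.15, 95% CI 0.56 to 1.22, limma adjusted p = 0.0825) and older minus younger lesions gave -0.82 (SE 0.16, 95% CI -1.18 to -0.46, adjusted p = 0.247). Neither difference was called. Without lesion replicate 6, the younger lesion with the lowest Gh1, the first became 1.02 and passed the threshold (adjusted p = 0.0423).

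**Figure D1:**
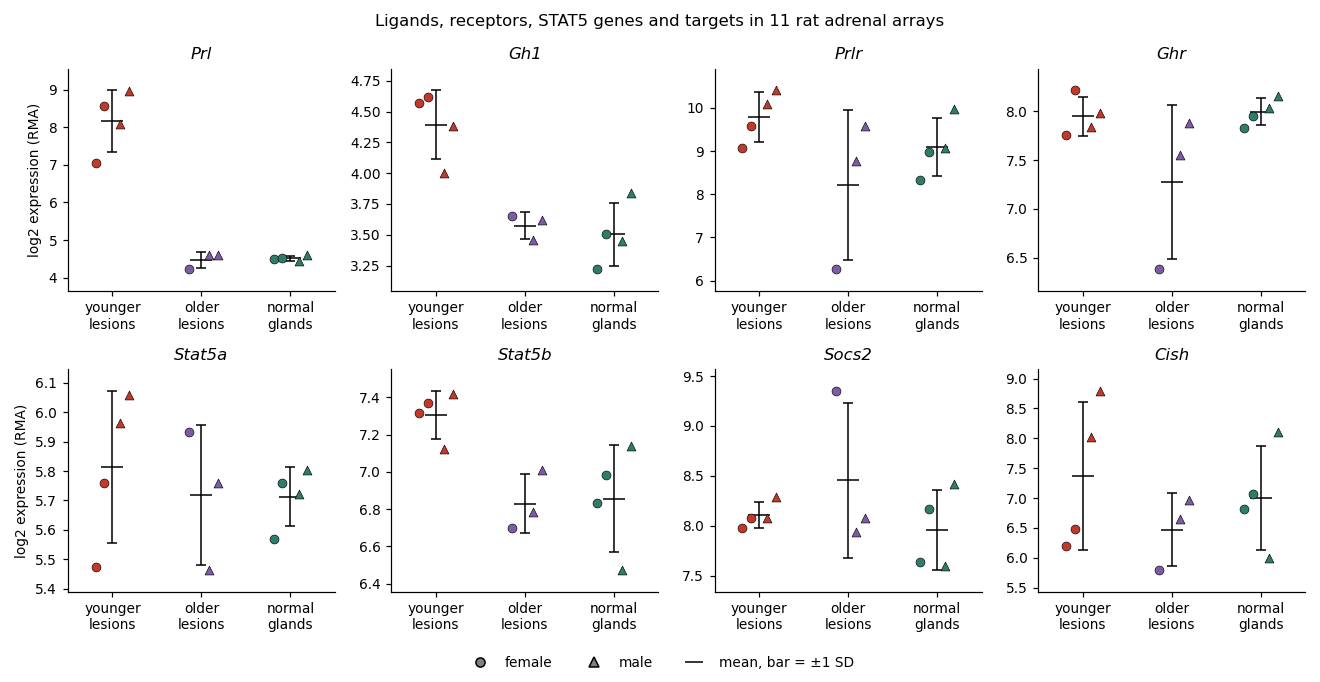
Log2 expression (y axis, a separate scale per panel) of the 8 genes in the 4 younger lesions, 3 older lesions and 4 normal glands (x axis). Circles are females and triangles males, and lines with bars are the mean ± 1 SD. Prl and Gh1 separate the younger lesions from every other array, Prlr and Ghr have 1 low older lesion (6.27 and 6.38), and Cish divides the younger lesions by sex.

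The other 20 measured genes of the prolactin and growth hormone family, which are mostly placental hormones, ranged from 2.53 to 4.00 over all arrays, and all 20 lay below the median of every array. The largest older minus younger difference among them was -0.26, for Prl6a1 (-0.11 without lesion replicate 4), followed by -0.21 for Prl4a1 (-0.11 without lesion replicate 1 or 5). None of the 20 was called in any of the 6 comparisons.

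Because Prl and Gh1 are pituitary hormones, the transcripts of the other pituitary cell types were read in the same arrays. Cga, the alpha subunit shared by the pituitary glycoprotein hormones, stood at 5.24, 4.34, 5.14 and 4.71 in the younger lesions, 4.12, 3.97 and 4.18 in the older lesions and 3.74, 3.78, 4.23 and 3.92 in the normal glands. Each younger lesion was above all other arrays, a pattern held by 1.28% of all probe sets. The difference was 0.94 from normal glands (95% CI 0.53 to 1.35, limma adjusted p = 0.141). For older minus younger lesions it was -0.77 (95% CI -1.22 to -0.33, adjusted p = 0.335), and neither was called. Pomc, the precursor of ACTH, was 4.78 to 5.40 in younger lesions, 4.46 to 4.68 in older lesions and 4.52 to 5.12 in normal glands. It was thus higher in all younger than in all older lesions, as were 4.55% of all probe sets, but overlapped with normal glands (older minus younger -0.49, 95% CI -0.88 to -0.10, adjusted p = 0.440).

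The specific beta subunit genes did not separate the groups. Tshb ranged from 3.39 to 3.57 in younger lesions and from 3.30 to 3.72 in the other arrays, Lhb from 4.71 to 4.83 against 4.70 to 5.10, and Fshb from 3.74 to 4.13 against 3.85 to 4.07. Pou1f1, the factor that activates Prl and Gh1 in the pituitary, stood at 3.23 to 3.52 in younger lesions. It was 3.20 to 3.59 in older lesions and 3.27 to 3.30 in normal glands. Its older minus younger difference was -0.0078 (95% CI -0.27 to 0.26). All values of Tshb, Fshb and Pou1f1 lay below the median of their array. They may therefore lie at background, where a difference could not be seen. Of the 17 measured of 20 anterior pituitary markers, 0 were called. Their array means were 4.40 to 4.50 in younger lesions, 4.25 to 4.42 in older lesions and 4.34 to 4.40 in normal glands. In older minus younger lesions 4 of 17 were above 0 (median -0.077), against 48.5% of all genes (median -0.0069). In younger lesions minus normal glands 11 of 17 were above 0 (median 0.023), against 48.8% of all genes. The part of pituitary cells or pituitary RNA in the level of Prl was not tested.

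**Figure D2:**
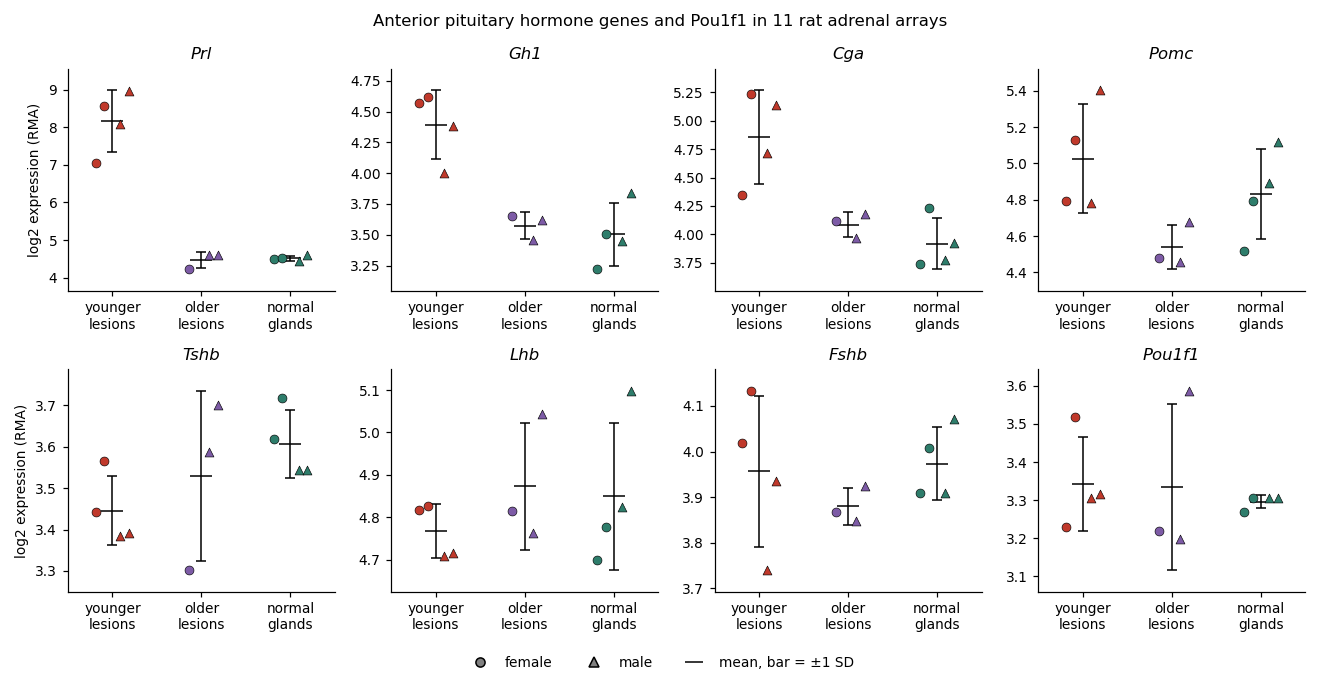
Log2 expression (y axis, a separate scale per panel) of pituitary hormone genes and Pou1f1 in younger lesions, older lesions and normal glands (x axis), with females as circles, males as triangles and the mean ± 1 SD. Prl, Gh1 and Cga are highest in the 4 younger lesions, while Pou1f1 stays between 3.20 and 3.59, below the array median, in all 11 arrays.

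Of the regulators of Prl, neither Drd2 nor Esr1 was highest in the younger lesions. Drd2, the dopamine receptor through which lactotrophs are inhibited, is also expressed in the adrenal gland. It was 6.89, 7.01, 7.76 and 7.44 in the younger lesions, 8.81, 7.50 and 7.76 in the older lesions and 7.76 to 8.19 in normal glands. The highest younger lesion and the lowest normal gland nearly met for this gene, at 7.756 and 7.762, so no separation is read. The mean difference was -0.69 (95% CI -1.33 to -0.047, limma adjusted p = 0.430), not called. Esr1, the oestrogen receptor that raises Prl in the pituitary, was 4.75 to 5.92 in younger lesions, 5.40 to 5.98 in older lesions and 5.73 to 6.87 in normal glands. Of the 14 measured genes of prolactin control, 0 were called in any comparison, and 8 were above 0 in older minus younger lesions (median 0.018). The gene of this list with the largest such difference was the neuropeptide gene Gal, at 9.59 in lesion replicate 1 and at 5.02 to 6.96 in the other 10 arrays. Its difference was 0.95, and -0.27 without lesion replicate 1.

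Receptor levels did not divide the arrays as Prl did. Prlr, the prolactin receptor gene, was 9.58, 9.08, 10.41 and 10.09 in the younger lesions, 6.27, 8.77 and 9.59 in the older lesions and 8.34, 9.08, 8.98 and 9.97 in the normal glands. The 3 groups overlapped, and the lowest value by far was that of lesion replicate 1, the 23-month female. The older minus younger difference was -1.58 (SE 0.68, 95% CI -3.09 to -0.074, limma adjusted p = 0.498), and -0.61 without that array (95% CI -1.55 to 0.34). Younger lesions minus normal glands gave 0.70 (95% CI -0.70 to 2.09, adjusted p = 0.767), and 0.31 against the 12-month normal glands alone. The difference was -0.88 for older lesions minus normal glands (95% CI -2.39 to 0.62, adjusted p = 0.941), and 0.087 without lesion replicate 1.

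Ghr, the growth hormone receptor gene, was nearly level outside that array. It stood at 8.22, 7.76, 7.98 and 7.84 in the younger lesions, 6.38, 7.55 and 7.89 in the older lesions and 7.83, 8.03, 7.95 and 8.16 in the normal glands. Younger lesions and normal glands overlapped and differed by -0.044 (95% CI -0.65 to 0.57, limma adjusted p = 0.978). Between older and younger lesions the difference was -0.68 (SE 0.30, 95% CI -1.34 to -0.019, adjusted p = 0.505), and -0.23 without lesion replicate 1 (95% CI -0.60 to 0.13). Older lesions minus normal glands gave -0.72 (adjusted p = 0.738), and -0.28 without that array.

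Lesion replicate 1 also stood apart in its cell markers. Its mean over 11 cortical markers was 8.81, against 9.48 to 10.29 in the other 10 arrays, and its mean over 11 medullary markers was 10.40, against 9.07 to 10.05. Among single genes, Mc2r, the ACTH receptor of the cortex, was 8.31 there and 10.27 to 11.11 elsewhere, and Slc18a2, a vesicular monoamine transporter, was 9.54 there and 5.30 to 7.90 elsewhere. Th, another medullary marker, did not stand apart, at 12.4 in lesion replicate 1 and 11.5 to 12.6 elsewhere. Lesion replicate 1 also had the lowest mean correlation with the other arrays over all probe sets (0.970, against 0.978 to 0.986). The part of the cell mix in the low Prlr and Ghr of this array was not tested.

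**Figure D3:**
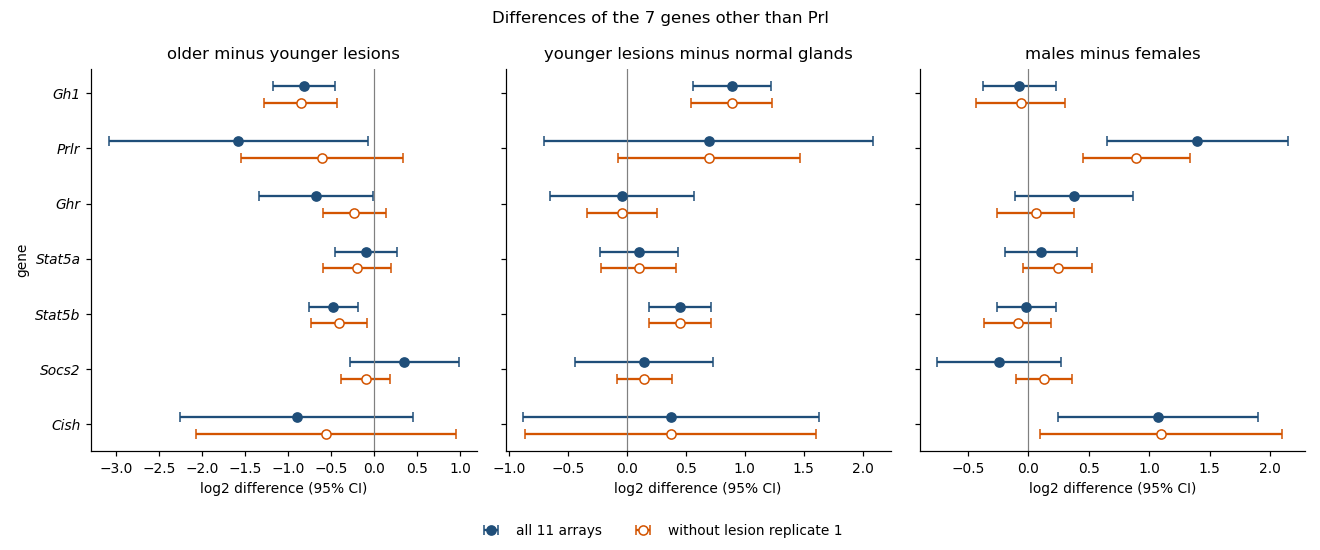
Log2 differences with 95% confidence intervals (x axis) for the 7 genes other than Prl (y axis) in 3 comparisons, with all 11 arrays (filled) and without lesion replicate 1 (open). The Prlr difference of older minus younger lesions moves from -1.58 to -0.61 and the Ghr difference from -0.68 to -0.23, while Gh1 and Stat5b keep intervals on the same side of 0 in both comparisons of younger lesions.

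Neither STAT5 gene was called in any comparison. Stat5b was 7.37, 7.32, 7.42 and 7.13 in the younger lesions, 6.70, 7.01 and 6.78 in the older lesions and 6.83, 6.47, 6.98 and 7.14 in the normal glands. All younger lesions lay above all older lesions, and 1 normal gland reached the lowest of the younger lesions. The older minus younger difference was -0.48 (SE 0.13, 95% CI -0.76 to -0.19, limma adjusted p = 0.353) and younger lesions minus normal glands 0.45 (SE 0.12, 95% CI 0.19 to 0.71, adjusted p = 0.218). The latter was 0.24 against the 12-month normal glands alone (adjusted p = 0.914), and the 2 comparisons share the younger lesions. In normal glands the means were 6.65 at 24 months and 7.06 at 12 months (n = 2 each), also lower in the older animals. The separation of younger above older lesions was held by 2 of the 7 genes, Gh1 and Stat5b, and by 4.55% of all probe sets.

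Stat5a ranged from 5.47 to 6.06 in younger lesions, from 5.46 to 5.93 in older lesions and from 5.57 to 5.80 in normal glands, so that the groups overlapped throughout. The older minus younger difference was -0.095 (95% CI -0.45 to 0.26, limma adjusted p = 0.887). Jak2, the kinase bound to both receptors, was 6.91, 7.06, 7.85 and 7.77 in the younger lesions, 7.06, 7.36 and 7.61 in the older lesions and 8.10, 7.56, 7.90 and 7.33 in the normal glands. Its older minus younger difference was -0.058 (95% CI -0.66 to 0.54, adjusted p = 0.969).

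Neither feedback target separated the younger lesions. Cish was 6.19 and 6.48 in the younger female lesions and 8.02 and 8.79 in the younger male lesions, although Prl was high in all 4. The older lesions had 5.79, 6.66 and 6.97 and the normal glands 6.82, 6.00, 7.06 and 8.11. The lower pair of the younger lesions thus lay within the range of the older lesions, and the highest normal gland lay above 1 of the younger males. For older minus younger lesions the difference was -0.90 (SE 0.61, 95% CI -2.25 to 0.45, limma adjusted p = 0.661). It was -0.56 without lesion replicate 1 and -0.43 without lesion replicate 7. Younger lesions minus normal glands gave 0.37 (95% CI -0.88 to 1.63, adjusted p = 0.883), and -0.22 against the 12-month normal glands alone. Leaving out lesion replicate 7 turned that difference to -0.10.

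Socs2 was 7.98, 8.08, 8.29 and 8.08 in the younger lesions, 9.35, 7.94 and 8.08 in the older lesions and 7.64, 7.60, 8.17 and 8.42 in the normal glands. The younger lesions lay inside the range of the normal glands, and the highest value was that of lesion replicate 1, in which Prl was lowest. For older minus younger lesions it was 0.35 (95% CI -0.29 to 0.98, limma adjusted p = 0.732) and -0.10 without that array. Younger lesions minus normal glands gave 0.15 (95% CI -0.44 to 0.73, adjusted p = 0.907). Older lesions minus normal glands gave 0.49 (adjusted p = 0.889), and 0.047 without lesion replicate 1. The normal glands divided by age, with 7.64 and 7.60 at 24 months below 8.17 and 8.42 at 12 months.

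**Figure D4:**
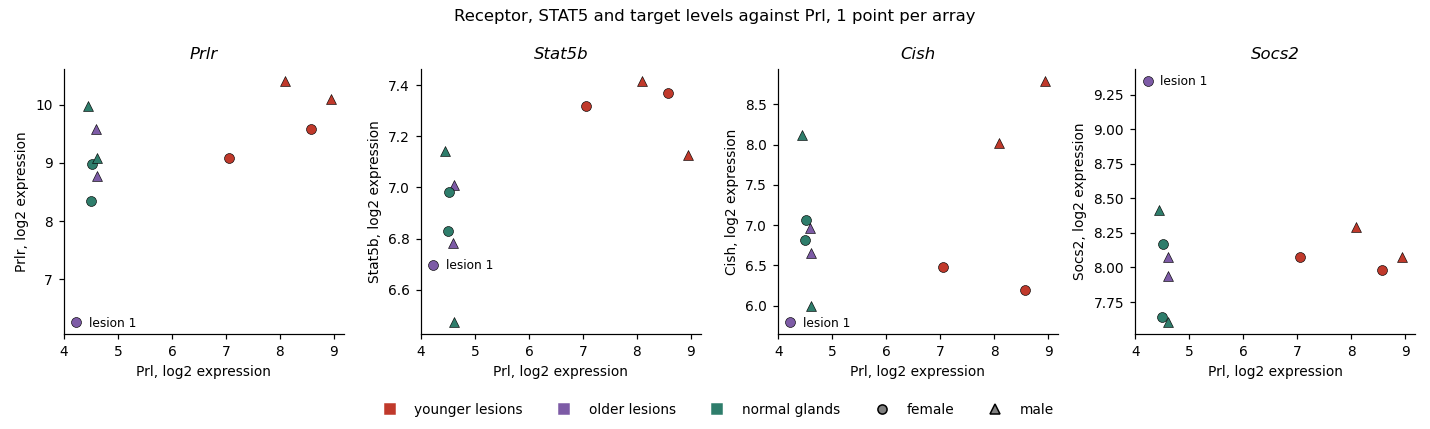
Log2 expression of Prlr, Stat5b, Cish and Socs2 (y axes, separate scales) against that of Prl (x axis), 1 point per array, with colour for the group and shape for the sex. The arrays form 2 clusters on the Prl axis, at 4.23 to 4.61 and at 7.05 to 8.95, and the clusters overlap in height for all 4 genes, for Stat5b through 1 normal gland (7.14) and 1 younger lesion (7.13).

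The arrays fell into 2 clusters on Prl, with 4 arrays in the upper one, so no correlation across arrays was used to judge whether receptors and targets followed it. Counted over the 7 genes other than Prl, 0 were called in older minus younger lesions (0.0103% of all probe sets were), 0 in younger lesions minus normal glands (0.0924%) and 0 in older lesions minus normal glands (0.0822%). For all lesions minus normal glands the count was also 0 of 7 (0.065%). At an unadjusted p under 0.05 by limma, 4 of the 7 differed between older and younger lesions (Prlr, Gh1, Ghr and Stat5b), where 9.6% of all probe sets did, and 2 between younger lesions and normal glands (Gh1 and Stat5b), where 10.7% did. Without lesion replicate 1 the first count was 2 (Gh1 and Stat5b), where 6.5% of all probe sets did. The count was 1 (Ghr) for older lesions minus normal glands, against 6.36% (0 without lesion replicate 1, against 5.14%), and 1 (Gh1) for all lesions minus normal glands, against 7.71%. For the age difference in lesions minus that in normal glands, 0 of 7 genes (0% of all probe sets) were called and 1 (Gh1) had an unadjusted p under 0.05, against 2.83%. The median difference of the 7 genes was -0.68 for older minus younger lesions, beside -0.0069 over all genes, and Socs2 alone was above 0. Without lesion replicate 1 the median was -0.41 and 0 of the 7 were above 0.

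Both sexes were present in every combination of group and age class. Prlr was higher in every male than in every female within each of the 4 combinations of group and age class, a pattern held by 1.32% of all probe sets. The male minus female difference was 1.40 (SE 0.33, 95% CI 0.65 to 2.15), or 2.64-fold, but it was not called (limma adjusted p = 0.681), and it was 0.89 without lesion replicate 1. For Cish, males were above females in 3 of the 4 combinations, the exception being the 24-month normal glands (6.00 in the male, 6.82 in the female), with a difference of 1.08 (95% CI 0.25 to 1.90, adjusted p = 0.971). For Prl itself the corresponding count was 2 of 4.

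The sex differences of Ghr, Stat5a, Stat5b, Socs2 and Gh1 were 0.38, 0.10, -0.015, -0.24 and -0.075, each with a 95% interval that includes 0. In all, 0 of the 7 genes and 0 of 29214 probe sets (0%) were called for sex by limma, and at an unadjusted p under 0.05 the counts were 2 of 7 (Prlr and Cish) and 4.51%. Markers of the cell mix were read by sex as well. Of the cortical markers 11 of 11 were above 0 in males minus females (median 0.24), as were 5 of 11 medullary markers (median -0.020) and 1 of 11 lymphocyte and macrophage markers (median -0.36), with 0 called in each list. The part of the cell mix in the sex difference of Prlr and Cish was not tested.

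The wider pathway was read from lists of related genes. Any of the 8 genes on a list stayed in its counts, so these are not independent of the values above. Outside the ligand list, 0 genes were called in older minus younger lesions, younger or older lesions minus normal glands, or males minus females. Over all probe sets the shares called were 0.0103%, 0.0924%, 0.0822% and 0%, so a count of 0 in lists of this size is near the background. Among 15 measured receptors, kinases and STATs, 5 were above 0 in older minus younger lesions (median -0.089), against 48.5% of all genes. The largest differences among those outside the 8 genes were 0.60 for Il2rg, a receptor chain of lymphocytes (95% CI 0.020 to 1.19, limma adjusted p = 0.501), and 0.57 for Stat4 (adjusted p = 0.579). Without lesion replicate 3 these were 0.35 and 0.20, and without lesion replicate 2 they were 0.96 and 1.01. Among 17 negative regulators, 9 were above 0 (median 0.10), led by the phosphatase gene Ptpn6 of blood cells (0.77, adjusted p = 0.454) and the inhibitor gene Socs5 (0.61, adjusted p = 0.468). For Ptpn6 the difference was 0.40 without lesion replicate 1. Beside these, the array means of the 11 measured lymphocyte and macrophage markers were 5.34 to 6.13 in older lesions, highest in lesion replicate 1, and 5.30 to 5.62 in younger lesions.

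Among 20 measured genes known as STAT5 targets in other tissues, 7 were above 0 in older minus younger lesions (median -0.096) and 12 in younger lesions minus normal glands (median 0.066). The D-type cyclin gene Ccnd2, named for its older minus younger difference, was 9.43 to 9.69 in younger lesions and 9.10 to 9.39 in normal glands. It was 7.69 in lesion replicate 1 and 9.29 and 9.34 in the other older lesions. Each younger lesion was thus above all other arrays, a pattern held by 1.28% of all probe sets. Younger lesions minus normal glands gave 0.34 (95% CI -0.35 to 1.03, limma adjusted p = 0.768). Older minus younger lesions gave -0.84 (95% CI -1.58 to -0.096, adjusted p = 0.471). Without lesion replicate 1 the difference was -0.30. Serpina3n, a protease inhibitor gene, was 4.42 in lesion replicate 1, 6.39 and 6.47 in the other older lesions and 4.70 to 5.59 in the younger ones. Its difference was 0.66 (adjusted p = 0.682), 1.32 without lesion replicate 1 and 0.34 and 0.30 without lesion replicates 2 and 3. Of 20 genes of the growth hormone and IGF axis, 4 were above 0 in older minus younger lesions (median -0.14), against 48.5% of all genes. In younger lesions minus normal glands, 10 of the 20 were above 0 (median 0.0045). Apart from the 8 genes, Igfbp2, a binding protein of the insulin-like growth factors, had the largest older minus younger difference (-0.63, 95% CI -1.28 to 0.025, adjusted p = 0.532). Its level was 10.01 and 10.06 in the younger females, 8.90 and 9.10 in the younger males, 8.54 to 9.15 in older lesions and 8.71 to 9.11 in normal glands. The next was Igfbp5, at -0.32 (adjusted p = 0.857). Leaving out lesion replicate 3 turned it to 0.22, and its values without lesion replicates 1, 2, 4 and 7 were -0.68, -0.49, -0.083 and -0.53.

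The genes whose pattern over the 11 arrays was most like that of Prl, by Pearson correlation among 14505 other genes, were Lman2, Kcnk3, Acads, Glmp and Ost4. The correlations were 0.947, 0.939, 0.928, 0.915 and 0.906. Since Prl has 2 clusters, this measure mostly ranks genes by how far the 4 younger lesions stand from the rest, and it is given without a test. Kcnk3, a background potassium channel of adrenal cells, was 8.90 to 9.18 in younger lesions, 8.06 to 8.48 in older lesions and 8.03 to 8.35 in normal glands. Acads, a mitochondrial enzyme of fatty acid oxidation, was 7.43 to 7.72, 6.35 to 7.01 and 6.42 to 6.81 in the same groups. Lman2, a cargo receptor of the secretory pathway, was 9.04 to 9.31, 8.54 to 8.86 and 8.60 to 8.81. For these 3 genes, and for Glmp and Ost4, the younger lesions did not overlap with either other group. The choice by likeness to Prl makes this likely, so nothing is read from it. By the same measure Gh1 ranked 21st and Stat5b 264th (0.859 and 0.732), while Prlr, Cish, Stat5a, Ghr and Socs2 had 0.543, 0.401, 0.350, 0.323 and -0.124.

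Markers of tissue composition also differed between the age classes of the lesions. Cortical markers had array means of 10.005 to 10.29 in younger lesions, 8.81 to 10.13 in older lesions and 9.48 to 9.991 in normal glands. Younger and older lesions overlapped, and the lowest older mean was that of lesion replicate 1, beside 9.86 and 10.13 in the others. The lowest younger lesion and the highest normal gland nearly met, so no separation is read. Of the cortical markers 1 of 11 was above 0 in older minus younger lesions (median -0.64). Medullary markers had means of 9.07 to 9.81 in younger lesions, 9.89 to 10.40 in older lesions and 9.65 to 10.05 in normal glands. Adipocyte markers had means of 5.49 to 6.70, 5.24 to 6.17 and 5.37 to 5.92 in the same order of groups, and 1 of 10 was above 0 in older minus younger lesions (median -0.43). Liver and kidney markers had means of 4.26 to 4.49, 4.16 to 4.48 and 4.22 to 4.34. None of these marker genes was called, and their part in the differences by age was not tested.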

How the data were processed

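Per the labels' protocols, RNA from 11 rat adrenal samples was amplified and labelled with biotin before hybridisation. The authors deposited log2 expression per probe set, summarised by RMA. The tool, per the submitters' processing notes, was Expression Console 1.3.0.187, and its options were not given in the sources used here. Array medians of 4.91 to 5.01 showed no centring per gene, so the values were used as deposited. Array pairs correlated at 0.960 to 0.992. The number of arrays limits the precision.

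Probe sets were named from the platform annotation (15310 of 29214 with 1 symbol), taking per gene the one with the highest mean over the 11 arrays. Two-sided tests used limma 3.58.1 (lmFit, eBayes, R 4.3.3) over all 29214 probe sets, with p-values adjusted by Benjamini and Hochberg's method and a call below 0.05. The model had a term per group and age class, so that all arrays shared 1 spread, which may be technical where replicates are not separate animals. Normal glands entered as the mean of their age classes, the comparison of all lesions used group alone, and sex was added for its own comparison. Intervals are 95% intervals of the moderated fit. The fit was tested on simulated data.

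The 8 genes, the gene lists and the tests were chosen with earlier results of these data known. Named beside the 8 were Jak2, chosen Prl regulators and pituitary markers, called list genes, the 2 largest older minus younger differences per pathway list and the 5 genes most like Prl. Alternatives were other normalizations, a filter on dim probe sets, other variance models, array weights, 1 probe set per gene, covariates, other thresholds, the replicate number as a block and leaving out each array. Plots were made in Python 3.11.15 (matplotlib 3.10.9).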

Additional observations from a re-analysis of the deposited data

Results flagged for a closer look

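Lesion replicate 1 lay far from the other 6 lesions for 3 of the 8 genes, with Prlr at 6.27, Ghr at 6.38 and Socs2 at 9.35. Among the other named genes, Esr1 was 4.75 in lesion replicate 5, far below the other 3 younger lesions, and Lhb was 5.04 in lesion replicate 3, above the other lesions. Pou1f1 was 3.27 in normal replicate 1 beside 3 normal glands of equal value. Such gaps were sought in 51 sets of arrays and 6 were found, where chance flags about 1 in 20 (2.55).

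For Gh1 the age difference ran in opposite directions in lesions and normal glands. Every older lesion was below every younger lesion (older minus younger -0.82), while both normal glands of 24 months (3.51 and 3.84) were above both of 12 months (3.22 and 3.45). The difference between these age differences was -1.16 (95% CI -1.75 to -0.57) and was not called (limma adjusted p = 1.00). That test called 0 of 29214 probe sets (0%) and 2.83% had an unadjusted p under 0.05, among them Gh1 as the only 1 of the 7 tested genes. All Gh1 values lay below the median of their array and may lie at background, where the order of so few normal glands means little. How many probe sets share these opposite orders was not counted.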

How the results depend on the processing

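Of 541 recomputed differences of the 8 genes, 524 were counted as unchanged, 16 changed sign and 1 newly passed. Unchanged meant the same direction and side of the threshold, or for Prl, which had no test, a move within its spread. Older lesions minus normal glands moved from -0.038 to 0.087 for Prl without lesion replicate 1, which was counted as unchanged. All lesions minus normal glands and the difference of age differences were not in this count. For older lesions minus normal glands it covered Prl, Prlr, Ghr and Socs2. The count of called genes among the 7 stayed at 0 in all comparisons and settings except younger lesions minus normal glands, where Gh1 made it 1 at an adjusted p under 0.10 and 0 to 1 on leaving out each array. Against normal glands of the same age class, younger lesions differed by -0.19 for Socs2 and -0.22 for Cish, and in lesions alone the sex difference of Stat5b was 0.036. On leaving out each array, older minus younger lesions ranged from -0.10 to 0.61 for Socs2 and from -0.21 to 0.032 for Stat5a. Younger lesions minus normal glands ranged from -0.13 to 0.019 for Ghr and from -0.10 to 0.77 for Cish. Older lesions minus normal glands ranged from -1.57 to 0.087 for Prlr. Males minus females ranged from -0.35 to 0.13 for Socs2, from -0.086 to 0.064 for Stat5b and from -0.17 to 0.027 for Gh1. The Prl difference of older minus younger lesions stayed between -4.06 and -3.43. The same was done, after seeing the data, for other named genes. Older minus younger lesions ranged from -0.22 to 0.093 for Jak2, from -0.13 to 0.060 for Pou1f1, from -0.68 to 0.22 for Igfbp5, from -0.27 to 1.60 for Gal and from -0.95 to 0.83 for Igf1. The cause of these changes was not tested. Where an array left a group and age class with 1 sample, that sample was assumed to vary like the others. The filter on dim probe sets removed Gh1, and each of the 8 genes had a single probe set, so no other could be tried.

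Over all probe sets, leaving out single arrays moved the calls from 3 to between 1 and 39 for older minus younger lesions, from 27 to between 3 and 60 for younger lesions minus normal glands, from 24 to between 10 and 53 for older lesions minus normal glands and from 19 to between 5 and 28 for all lesions minus normal glands. The highest counts were reached without lesion replicate 2 (39 and 53) or 1 (60). Against same-age normal glands the calls were 10 for younger and 4 for older lesions. With array weights they were 47 for older and 31 for all lesions minus normal glands, and the dim filter gave 30 for the latter and 2 for older minus younger lesions, as did a sex term. At thresholds of 0.01 and 0.10 the calls were 1 and 3 for older minus younger lesions, 5 and 51 for younger, 7 and 41 for older and 9 and 34 for all lesions minus normal glands. With the replicate block, 0 of the 7 genes and 3 probe sets were called for all lesions minus normal glands. Deviations of same-numbered arrays correlated at 0.182, 0.150, 0.073 and 0.209, so the numbers were not taken to pair the samples.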

Other observations

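Igf1, the gene of insulin-like growth factor 1 and a known target of growth hormone through STAT5, was named after its values were seen. In younger lesions it stood at 7.95 and 8.32 in the females and at 10.29 and 10.04 in the males. In older lesions it was 6.97 in the female, lesion replicate 1, and 10.5 and 9.43 in the males. Male lesions were thus above female lesions, but how many probe sets share this order was not counted, so nothing is read from it. The normal glands did not share this order at both ages, with 8.85 in the female and 10.4 in the male at 24 months and 9.71 in the female and 8.61 in the male at 12 months. Males minus females over all arrays gave 1.59 (SE 0.49, 95% CI 0.47 to 2.71), which was not called (limma adjusted p = 0.864). Older minus younger lesions gave -0.17 (95% CI -2.09 to 1.74, adjusted p = 0.971), and 0.83 without lesion replicate 1.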
